A study of Mus musculus with 182 samples.

Results

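Ribosome biogenesis was described through 7 genes of the nucleolus, namely Ncl, Nolc1, Npm1, Fbl, Nop56, Nop58 and Nop10, in single germinal centre B cells of the mouse spleen. The genes were chosen by symbol, and all 7 were found among the 17034 gene symbols of the deposited table. Each of 182 cells, captured on a microfluidic chip (Fluidigm C1), gave 1 RNA sequencing library. C57BL/6 mice were immunized with NP(23)-KLH, the hapten NP coupled to a foreign protein, at 100 μg, together with the adjuvants alum (50%) and LPS (1 μg). On day 13, after depletion of T cells, CD11c+ cells and IgD+ cells, spleen cells were sorted as B220+ and GL7 high, and the sample labels add NP+ and Fas high where the design text gives Fas+ and no NP gate. All cells formed 1 group without a control group and no animal is named, so they count as 1 biological sample, no p-value was computed, and intervals cover counting error over cells only.

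The nucleolus is the site where ribosomal RNA is transcribed, chemically modified and folded into ribosomal subunits. Small nucleolar ribonucleoproteins (snoRNPs) guide the modification, with box C/D particles adding methyl groups to the ribose and box H/ACA particles converting uridine to pseudouridine. Myc is known to raise the expression of many of these genes in dividing cells, and in the germinal centre Myc marks B cells that have been selected for further division.

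Of the 7 genes, Fbl, Nop56 and Nop58 encode core proteins of box C/D snoRNPs, where Fbl (fibrillarin) is the methyltransferase. Nop10 encodes a small core protein of box H/ACA snoRNPs and of telomerase. Nolc1 encodes a scaffold protein that binds both kinds of particle. Ncl (nucleolin) and Npm1 (nucleophosmin) encode abundant RNA-binding chaperones of the nucleolus.

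In mm10 coordinates (GENCODE M21), Ncl lies on chromosome 1 at 86344719 to 86359400 on the minus strand, Nop58 on chromosome 1 at 59684971 to 59719044 and Nop56 on chromosome 2 at 130274430 to 130279313. Nop10 lies on chromosome 2 at 112261926 to 112263269, Fbl on chromosome 7 at 28169710 to 28179269, Npm1 on chromosome 11 at 33152287 to 33163206 on the minus strand, and Nolc1 on chromosome 19 at 46075863 to 46085530.

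The promoters of Ncl and Nolc1 are shown because these genes formed the one pair that varied together in both sets of cells described below. Each sequence is the 250 bases before the RefSeq start (GRCm38.p6), read 5′ to 3′ on the gene's own strand, from chr1:86359456-86359705 for Ncl and chr19:46075597-46075846 for Nolc1. Capitals mark matches to the GC box CCGCCC and the ETS core CCGGAA on either strand.
Ncl: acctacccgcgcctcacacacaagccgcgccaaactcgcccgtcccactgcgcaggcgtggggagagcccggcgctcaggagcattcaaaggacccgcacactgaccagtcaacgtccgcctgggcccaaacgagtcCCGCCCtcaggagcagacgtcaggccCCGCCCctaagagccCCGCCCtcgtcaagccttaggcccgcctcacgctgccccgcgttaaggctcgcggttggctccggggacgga
Nolc1: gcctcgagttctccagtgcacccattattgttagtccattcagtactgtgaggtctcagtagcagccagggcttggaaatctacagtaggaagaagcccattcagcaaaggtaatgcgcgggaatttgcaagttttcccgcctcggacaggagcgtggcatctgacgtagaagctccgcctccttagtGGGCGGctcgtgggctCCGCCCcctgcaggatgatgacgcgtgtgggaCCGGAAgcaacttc
The E-box CACGTG, the letters best known for Myc binding, was in none of the 5 member windows in the promoter table (Ncl, Nolc1, Nop56, Nop58 and Nop10), and in 6.02% of all 32851 windows of this length. The GC box was in 4 of the 5, with Nop10 lacking it, and in 32.7% of all windows. The ETS core was in the windows of Nolc1 and Nop58 and in 12.0% of all windows. These counts describe letters only and say nothing of binding.

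The table holds normalized values that are not on a log scale, and its columns fall into 2 sets by their values, cells 1 to 96 (set 1, 96 cells) and cells 97 to 182 (set 2, 86 cells). What the sets correspond to is not given. Each gene has a lowest value per set, called its floor here, which was exactly 0 for all 7 genes in set 1 and above 0 for all 7 in set 2. A median of 2666 genes per cell lay above their floor in set 1 (range 1904 to 4495) and 2188.5 in set 2 (980 to 5149). Detection means a value of 1 or higher throughout. The number of genes detected was nearly fixed in set 1, at 1873 to 1946 per cell (median 1904). In set 2 it ran from 995 to 1741 (median 1690). A lower value is thus not absence of the transcript, as detection is a cut at a normalized value of 1. Of 11 germinal centre B cell markers, 8 were detected in over 50% of cells, against 3.79% of all symbols, led by Cd79b in 180 of 182. The others were Fas (50%), S1pr2 (45.1%) and Pax5 (33.5%). Of 6 plasma cell markers, 1 was detected in over 50% of cells, Slamf7 (57.7%). Of T cell markers, Cd3d and Cd4 reached that value in 0 of 182 cells (at most 1.65% by a limit of 3 counts of the total, and 2.01% by the exact interval), while Lck did in 99 cells.

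The nucleolar genes ranged from nearly ubiquitous to nearly unlisted. Ncl was detected in 164 of 182 cells (90.1%, exact Clopper-Pearson 95% interval 84.8 to 94.0), Npm1 in 126 (69.2%, 62.0 to 75.8) and Nop56 in 100 (54.9%, 47.4 to 62.3). Nop58 was detected in 79 cells (43.4%, 36.1 to 50.9), Nolc1 in 74 (40.7%, 33.5 to 48.2), Nop10 in 49 (26.9%, 20.6 to 34.0) and Fbl in 4 (2.2%, 0.602 to 5.53). In this order, the interval of Ncl lay above that of Npm1 and the interval of Fbl below that of Nop10, while all other neighbours had overlapping intervals. All shares come from the same cells, so separate intervals do not measure the difference between genes, which was not tested. Detection in at least 10% of cells, a filter used below, was met by 6 of the 7 genes (all but Fbl) and by 31.8% of all symbols. The median share over the 7 genes was 43.4%, against 3.85% over all symbols, and 3 of the 7 genes were detected in over 50% of cells, against 3.79% of all symbols. The order is one of detection only, since the sources used here do not say whether values were divided by transcript length.

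Among the box C/D genes, Nop56 had a lowest value of 0, a median of 2.38 and a highest value of 1577 in set 1, and 0.116, 0.630 and 3238 in set 2. Nop58 had 0, 0.849 and 1124 in set 1, and 0.0804, 0.0804 and 1343 in set 2. Nop56 reached a value of 10 or more in 57 of all cells (31.3%) and Nop58 in 41 (22.5%). Nop56 was detected in 58 cells of set 1 (60.4%) and 42 of set 2 (48.8%), and Nop58 in 47 (49.0%) and 32 (37.2%).

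Fbl stood apart from its partners in the box C/D particle. It was above its floor in 7 cells, and it reached 1 in only cell 37 (33.1) and cell 80 (1.21) of set 1 and cell 163 (4.26) and cell 169 (28.3) of set 2. All of these 4 cells also had Ncl, against 3.60 under independence, and none had Nolc1, against 1.63. Of 76 cytosolic ribosomal protein genes, which every cell uses, 7 were detected in 10 cells or fewer, with Rps12 in 1. However, 40 of the 76 were detected in over 50% of cells, and their median was 95.5 cells. The share of all symbols at 10 cells or fewer was not computed, but the median symbol was detected in 3.85% of cells. A value at the floor is given as listed there and not as absence of the transcript. A search of annotated transcripts found a stretch of 690 bases, 57.6% of the Fbl transcript, at 99.6% identity in a non-coding transcript of Tulp4, and processed pseudogenes of Fbl at up to 96.9% identity. Tulp4 was detected in 5 cells, none of them with Fbl, and these counts are too small to show whether the rows share reads. How reads that match several places were counted is not given in the sources used here, so the Fbl value is uncertain.

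The same search, which asked for at least 90% identity over at least 500 bases, found 7 processed pseudogenes for Npm1 and 4 for Nop56, none of them in the table, so the values of both genes are uncertain in the same way. It found none for Ncl, Nolc1, Nop58 and Nop10. Nop56 also overlaps Idh3b by 5 bases. The RefSeq annotation places 11 small nucleolar RNA genes inside 3 of the 7 genes, namely Ncl, Nop56 and Nop58. Of these, Snora75 inside Ncl was in the table. It was detected in 4 cells, each of which also had Ncl, as did 90.1% of all cells.

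For the box H/ACA protein gene Nop10, the lowest, median and highest values were 0, 0 and 2689 in set 1, and 0.0306, 0.0306 and 811.9 in set 2. It was at its floor in most cells of both sets. Among the cells with Nop10, the median value was 18.4 in the 24 cells of set 1 and 85.9 in the 25 cells of set 2. The scaffold gene Nolc1 had a lowest value of 0, a median of 0.231 and a highest of 438.8 in set 1, and 0.0118, 0.0118 and 238.2 in set 2. Nolc1 was detected in nearly the same share of both sets, 41.7% of set 1 and 39.5% of set 2.

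The chaperone genes were detected in the most cells. Ncl had a lowest value of 0, a median of 47.7 and a highest of 590.0 in set 1, and 0.360, 18.7 and 848.8 in set 2. Npm1 had 0, 8.48 and 1393 in set 1, and 0.359, 3.89 and 1233 in set 2. Ncl was detected in 89.6% of set 1 and 90.7% of set 2, and Npm1 in 76.0% and 61.6%. At a value of 5 or more, Ncl was still found in 77.5% of all cells, Npm1 in 52.2% and Nop10 in 20.3%.

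**Figure D1:**
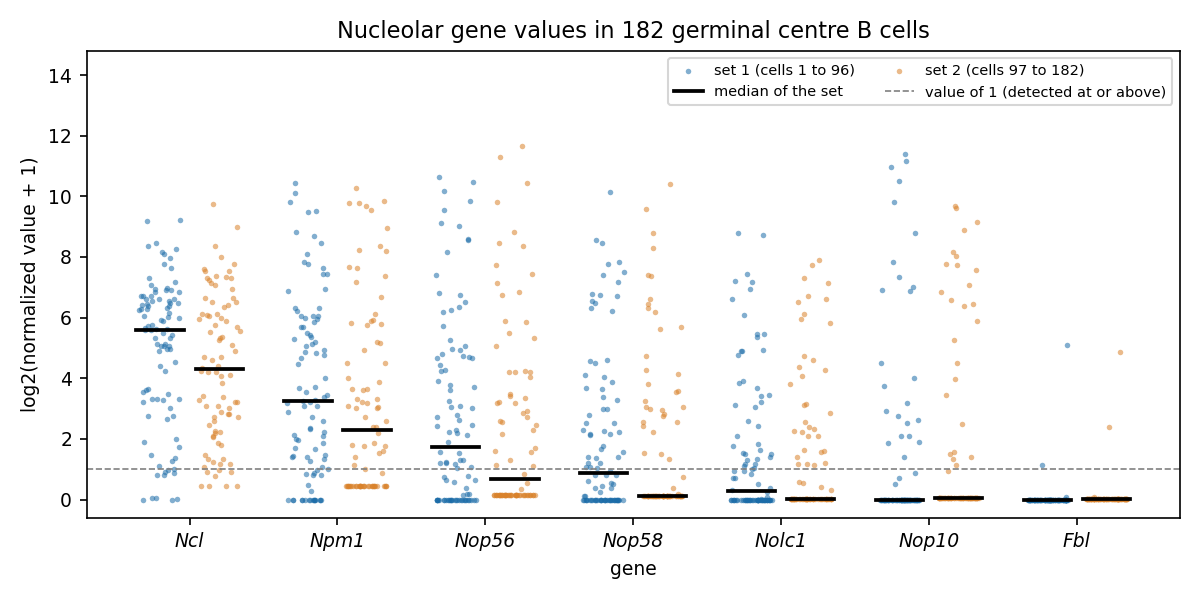
Normalized value of each nucleolar gene in every cell, as log2(value + 1) on the vertical axis, with set 1 in blue, set 2 in orange and the median of each set as a black bar. The dashed line marks a value of 1, which Ncl reached in 164 of 182 cells and Fbl in 4.

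No cell had all 7 genes. A cell had a median of 3 of them, 2 cells had none and 8 cells had 6. Within set 1, 5 cells had 6 of the genes and 1 had none, where independent detection would give 2.25 and 0.207 cells. Within set 2, the counts were 3 and 1 against 1.15 and 0.413. The number of these genes in a cell had a rho (Spearman's rank correlation across cells) of 0.31 with the number of genes above their floor in set 1 and 0.18 in set 2. The part of this measure of library yield in the shared detection was not tested.

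Pairs of these genes varied together weakly. Over the 15 pairs of the 6 genes that passed a filter of detection in at least 10% of cells, the mean rho was 0.11 in set 1 and 0.10 in set 2, where all pairs of 5409 such genes had a mean of 0.01 and 0.02. Of the 15 pairs, 12 had a rho above 0 in set 1 and 12 in set 2, where 53.4% and 56.8% of all gene pairs did. These are correlations between points of the same libraries, which share their depth and the normalization, and they are given as a description. Over all 182 cells without regard to set, 18.4% of all gene pairs had a rho of 0.2 or more, against 5.13% in set 1 and 7.57% in set 2. Values within the sets are therefore given first. The pooled rho of Fbl with Nop10, 0.54, is an example, with 0.34 in set 1, 0.14 in set 2 and 2 cells that had both genes.

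A pair was called where its rho was at least 0.2 in both sets, a rule that 0.691% of all gene pairs met. Of the 15 pairs, 1 was called. Ncl and Nolc1 had a rho of 0.27 in set 1 and 0.45 in set 2 (0.30 over all cells, Pearson's r of log2(value + 1) 0.36, and 0.36 without the 2 cells farthest from the Ncl median). Of the 74 cells with Nolc1, 71 also had Ncl, against 66.7 under independence, while many cells high in Ncl had Nolc1 at its floor. Among 5407 genes ordered by the lower of their rho values in the sets, Ncl was the gene most like Nolc1, and Nolc1 stood at position 15 in the order for Ncl. The next gene most like Nolc1 was Gnl3, a nucleolar GTPase known as nucleostemin, with 0.24 in set 1 and 0.29 in set 2, followed by Xab2 (0.26 and 0.23). The call was lost at a limit of 0.3, since the value in set 1 lay below it.

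**Figure D2:**
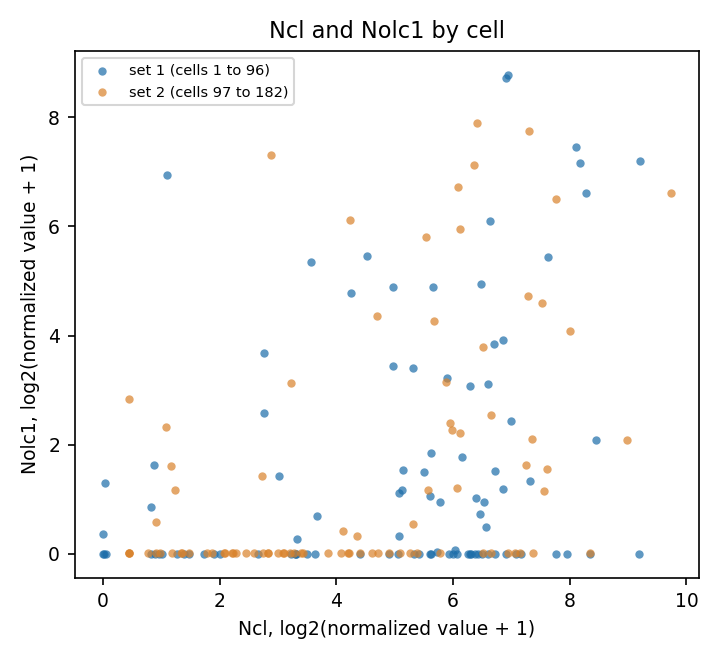
Ncl (horizontal axis) against Nolc1 (vertical axis) in each cell, both as log2(value + 1), with set 1 in blue and set 2 in orange. Cells along the bottom have Nolc1 at or near its floor, and both genes were detected together in 71 cells.

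The box C/D partners Nop56 and Nop58 showed little relation to each other. Their rho was -0.02 in set 1 and 0.08 in set 2, with 43 cells holding both against 43.4 under independence. Nolc1 had a rho of 0.38 with Nop58 in set 1 but 0.01 in set 2, and 0.10 with Nop56 in set 1 but 0.29 in set 2. Ncl likewise had 0.28 with Nop58 in set 1 and 0.06 in set 2, and 0.06 with Nop56 in set 1 and 0.30 in set 2. The 4 pairs of Nolc1 or Ncl with Nop56 or Nop58 each passed 0.2 in one set and not in the other, and the difference between the sets was not tested.

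Nop10 ran against Ncl in set 1, with a rho of -0.34, but had -0.07 in set 2, so no pair of members reached -0.2 in both sets, as 0.146% of all gene pairs did. With Npm1, Nop10 had 0.28 in set 1 and 0.17 in set 2, and 42 cells held both genes, against 33.9 under independence. Npm1 and Nop10 were also the 2 of 6 members with a rho of at least 0.2 with the number of genes above their floor in both sets, as had 14.7% of all genes. The values were 0.39 and 0.30 for Npm1 and 0.34 and 0.41 for Nop10. For Ncl the same values were -0.02 and -0.15, and for Nop56 0.11 and -0.12. Nop58 had 0.45 in set 1 and 0.13 in set 2. The part of this in the pairing of Npm1 with Nop10 was not tested, but with the number of genes above floor and the set taken into account the pair's rho over all cells was 0.14.

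**Figure D3:**
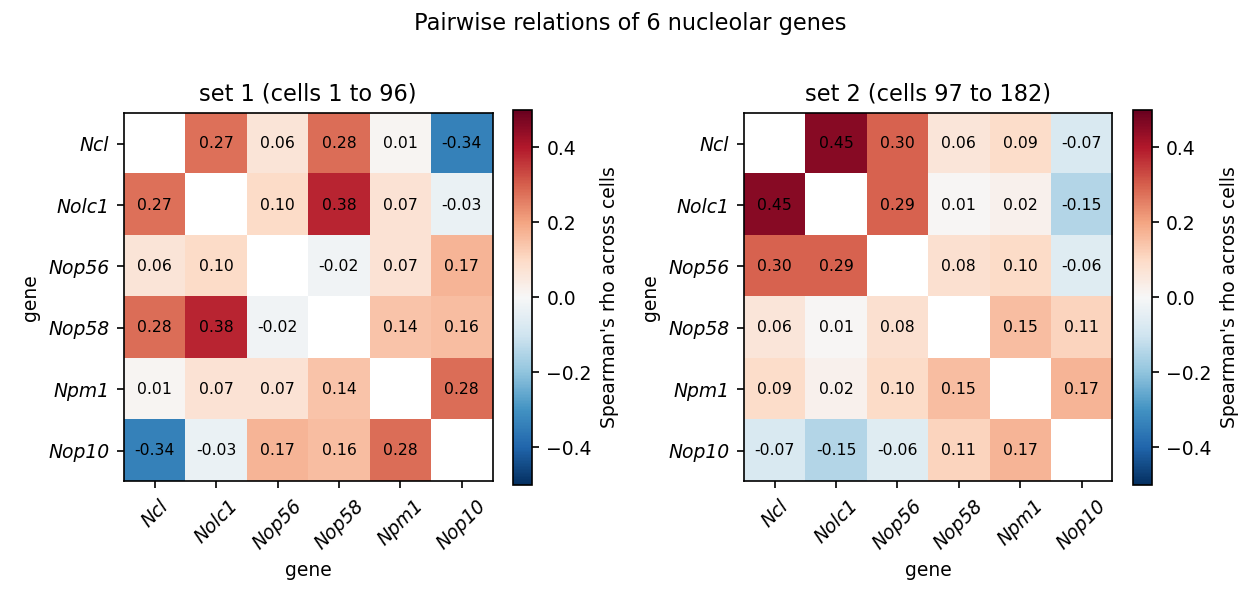
Spearman's rho across cells for each pair of the 6 nucleolar genes detected in at least 10% of cells, in set 1 (left) and set 2 (right), with red above 0 and blue below. Ncl with Nolc1 is the pair at 0.2 or more in both panels, with 0.27 and 0.45.

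The genes most like each member differed between members. For Ncl they included Lars2 (0.49 in set 1 and 0.45 in set 2), a mitochondrial leucyl-tRNA synthetase, and Rpsa (0.43 and 0.52), a protein of the small ribosomal subunit. For Npm1 they were Eny2 (0.31 and 0.43), Mrps28 (0.31 and 0.31), a mitochondrial ribosomal protein, and Nhp2 (0.31 and 0.33), a core protein of box H/ACA snoRNPs. For Nop10 they were Eif5a (0.45 and 0.54), a translation factor, the mitochondrial ribosomal protein gene Mrps21 (0.43 and 0.42) and Mdh2 (0.40 and 0.39), a mitochondrial dehydrogenase. For Nop56 they were Qars (0.25 and 0.26), Ldb1 (0.24 and 0.26) and Kif23 (0.27 and 0.23), and for Nop58 Hint1 (0.30 and 0.29), Fam204a (0.27 and 0.28) and Dpy30 (0.34 and 0.27). As the highest of 5407 genes each, these values overstate the relation. Nop10 had 320 genes at 0.2 or more in both sets (5.92% of all tested), Npm1 122 (2.26%), Ncl 54 (0.999%), Nop58 54 (0.999%), Nop56 11 (0.203%) and Nolc1 9 (0.166%).

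Myc was compared with the nucleolar genes next, as a known driver of their expression. None of the 6 genes that passed the filter reached 0.2 with Myc in both sets, a level met by 1.39% of all genes, and none reached -0.2 in both, as 0.037% did. Nop10 came closest, with 0.19 in set 1 and 0.28 in set 2, or 0.12 and 0.14 with the number of genes above floor taken into account. Nolc1 had 0.21 and -0.01, Npm1 0.23 and 0.06, Ncl 0.11 and -0.01, Nop56 0.04 and 0.01, and Nop58 0.01 and -0.09. Nop10 was detected in 13 of 34 cells with Myc (38.2%, 22.2 to 56.4) and in 36 of 148 without (24.3%, 17.7 to 32.1). Nop56 was detected in 16 cells with Myc (47.1%, 29.8 to 64.9) and 84 without (56.8%, 48.4 to 64.9), and Ncl in 31 with (91.2%) and 133 without (89.9%). The intervals overlapped for each of these genes. Cells with Myc had a median of 2842 genes above floor in set 1 and 2348.5 in set 2, against 2662.5 and 2065.5 for cells without it.

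A score was taken as the mean over the 7 genes of the z-score of log2(value + 1). Its rho with Myc was 0.28 in set 1, 0.03 in set 2 and 0.13 over all cells (Pearson's r 0.15, and 0.12 without the 2 cells farthest from the median score). The score itself had a rho of 0.39 with the number of genes above floor in set 1 and -0.04 in set 2. With that number taken into account, the rho with Myc was 0.22 in set 1 and 0.06 in set 2. Over all cells, with the set taken into account too, it was 0.039, below the value of either set. That pooled value ranks cells of both sets together, although the sets have different floors. At this number of cells with Myc, 12 in set 1 and 22 in set 2, the values are imprecise.

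Division was described through a score of 39 genes of S phase, when DNA is copied, and one of 53 genes of G2/M phase, when cells divide. With the S phase score, the nucleolar score had a rho of 0.33 in set 1, 0.04 in set 2 and 0.20 over all cells (r 0.19, and 0.25 without the 2 farthest cells). Among the members, Ncl had 0.38 and 0.16, Nop56 0.28 and 0.20 and Nolc1 0.24 and 0.17, while Npm1 had 0.10 and 0.06, Nop58 0.08 and -0.05 and Nop10 -0.07 and -0.17. Ncl, Nop56, Nolc1 and Npm1 were thus above 0 in both sets, and the share of all genes with that pattern was not computed. Nop56 at 0.197 in set 2 missed the limit, and none of the 6 was called, against 2.24% of the genes outside the list. With the number of genes above floor taken into account, Nop56 had 0.26 in set 1 and 0.22 in set 2, and Ncl 0.39 and 0.19.

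With the G2/M phase score, the nucleolar score had a rho of 0.21 in set 1 and -0.14 in set 2, and 0.08 over all cells (r 0.08, and 0.06 without the 2 farthest cells). The members lay between -0.00 for Nop10 and 0.21 for Nop56 in set 1, and between -0.06 for Ncl and 0.05 for Nolc1 in set 2, leaving out Fbl. None of the 6 was called with that score, against 3.44% of the genes outside its list. None was called with Mki67, a mark of dividing cells, or Top2a, which untangles copied DNA, where 0.869% and 2.44% of all genes were called above 0, nor below 0 with Top2a, as 0.462% were. With Top2a the highest members were Nolc1 (0.26 in set 1 and 0.08 in set 2) and Nop56 (0.24 and 0.11). Nop10 had the lowest value with Mki67, at -0.14 in set 1 and -0.24 in set 2, and no member passed -0.2 in both sets, as 1.15% of all genes did.

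Detection was also compared between cells with and without each division gene. Nolc1 was detected in 69 of 153 cells with Top2a (45.1%, 37.1 to 53.3) and in 5 of 29 without (17.2%, 5.85 to 35.8). The order held in both sets, at 47.0% against 7.69% in set 1 and 42.9% against 25.0% in set 2, but within each set the intervals overlapped. Ncl was detected in 92.8% of cells with Top2a (87.5 to 96.4) and in 75.9% without (56.5 to 89.7). The Ncl gap lay mostly in set 1, at 94.0% against 61.5% of 13 cells, while set 2 had 91.4% against 87.5% of 16 cells. Nop10 went the other way with Mki67, as it was detected in 35 of 152 cells with Mki67 (23.0%, 16.6 to 30.5) and in 14 of 30 without (46.7%, 28.3 to 65.7), with overlapping intervals. The same order for Nop10 was seen at 22.2% against 40.0% in set 1 and 23.9% against 53.3% in set 2. Npm1 was detected in 66.4% of cells with Mki67 (58.3 to 73.9) and in 83.3% without (65.3 to 94.4). The median number of genes above floor was 2663 with Top2a and 2691 without in set 1, and 2164.5 and 2219 in set 2. The pairs of shares described here were picked for their wide gaps among all splits made. How many of all genes have gaps as wide was not computed.

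The nucleolar genes were also compared with the zone markers Cxcr4, a chemokine receptor of dark zone cells, and Cd83, an activation marker of light zone cells. The score had a rho of -0.12 in set 1 and 0.00 in set 2 with Cxcr4 (-0.07 over all cells, r -0.09, and -0.06 without the 2 farthest cells). With Cd83 it had 0.03 and 0.15 (0.08 over all cells, r 0.06, and 0.04 without the 2 farthest cells). No member was called with Cxcr4, where 0.203% of all genes were called above 0 and 0.037% below, or with Cd83, where the shares were 0.111% and 0.166%. The shares of Nop58 and Nolc1 differed most between cells with and without Cxcr4. Nop58 was detected in 31 of 87 cells with Cxcr4 (35.6%, 25.6 to 46.6) and in 48 of 95 without (50.5%, 40.1 to 60.9). Nolc1 was detected in 28 cells with Cxcr4 (32.2%, 22.6 to 43.1) and in 46 without (48.4%, 38.0 to 58.9). For both genes the share was lower in cells with Cxcr4 within each set too, at 42.2% against 54.9% in set 1 and 28.6% against 45.5% in set 2 for Nop58, and at 31.1% against 51.0% and 33.3% against 45.5% for Nolc1. The intervals overlapped for both genes over all cells, and the difference itself was not tested. The rho of Nop58 with Cxcr4 was 0.01 in set 1 and -0.25 in set 2, and that of Nolc1 was -0.06 and 0.01. The median genes above floor were 2691 in cells with Cxcr4 and 2650 in cells without in set 1, and 2210 and 2146 in set 2. With Cd83, the widest gap was that of Nop56, detected in 53 of 88 cells with it (60.2%, 49.2 to 70.5) and in 47 of 94 without (50.0%, 39.5 to 60.5). The share of Nop56 was 66.7% against 54.2% in set 1 and 52.5% against 45.7% in set 2. Nolc1 was detected in 35 cells with Cd83 (39.8%, 29.5 to 50.8) and 39 without (41.5%, 31.4 to 52.1), and Nop58 in 41 (46.6%) and 38 (40.4%).

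**Figure D4:**
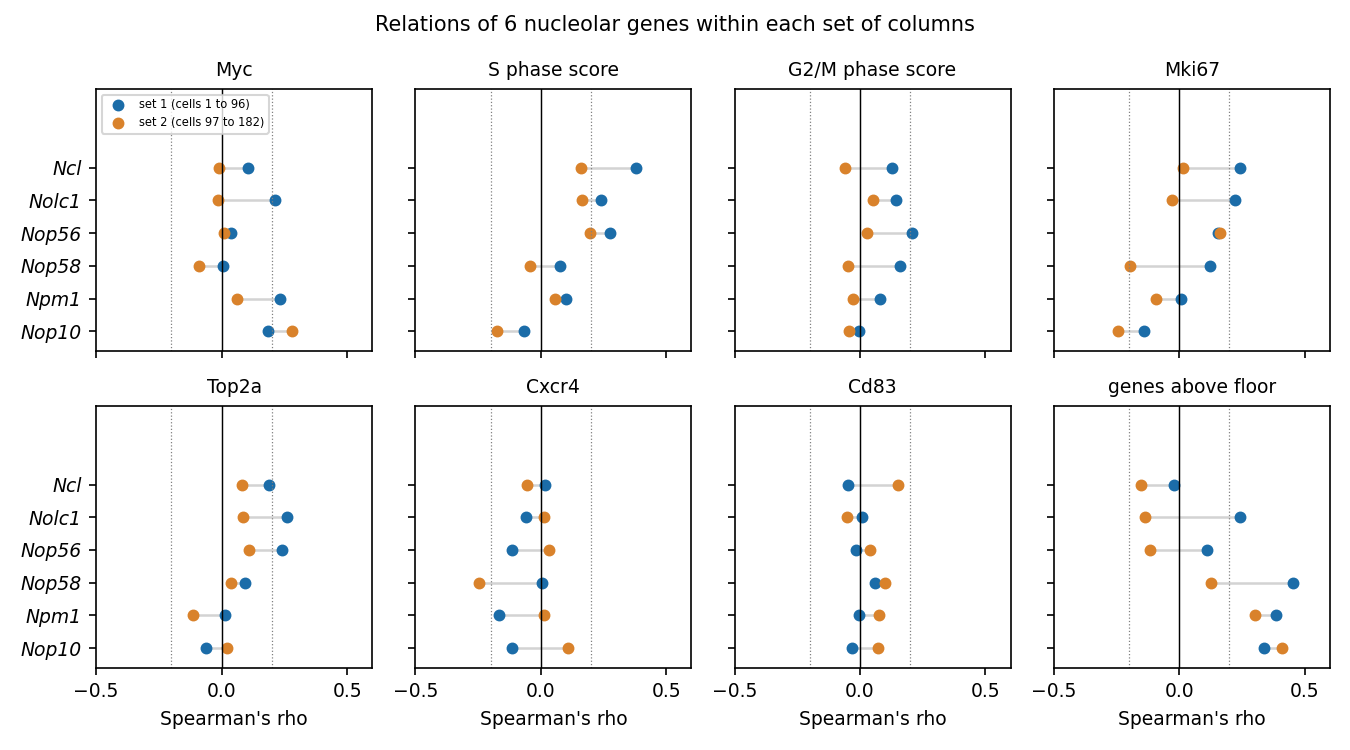
Spearman's rho of each of 6 nucleolar genes with Myc, both phase scores, Mki67, Top2a, Cxcr4, Cd83 and the number of genes above their floor, in set 1 (blue) and set 2 (orange). Dotted lines mark -0.2 and 0.2. The values of Ncl, Nolc1, Nop56 and Npm1 lie above 0 in both sets for the S phase score. The share of all genes with that pattern was not computed. None of the 6 genes reaches 0.2 in both sets for that score, against 2.24% of the genes outside its list. The values of Npm1 and Nop10 lie beyond 0.2 in both sets for genes above floor, as do those of 14.7% of all genes.

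Other genes of the pathway were compared with the nucleolar score over lists chosen by role. Of 143 other ribosome biogenesis genes, 114 passed the filter, and 2 of these (1.75%) had a rho of at least 0.2 with the score in both sets, against 0.537% of all genes. These were Dkc1, the pseudouridine synthase that works with Nop10 in box H/ACA particles (0.30 in set 1 and 0.23 in set 2), and Nob1, the nuclease that makes the end of the small subunit RNA (0.28 and 0.30). The median rho of the 114 genes was 0.13 in set 1 and 0.07 in set 2, against 0.04 and 0.01 over all genes, and 72 of them (63.2%) were above 0 in both sets, against 34.7% of all genes. The score had a rho of 0.39 with the number of genes above floor in set 1 and -0.04 in set 2. The part of that number in the list values, here and below, was not tested.

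By role, the other box H/ACA genes were Dkc1, detected in 84 cells (46.2%), Nhp2 in 48 (26.4%) and Gar1 in 16 (8.79%, below the filter). Nhp2 had a rho of 0.46 with the score in set 1 and 0.18 in set 2. Nhp2l1, the remaining core gene of the box C/D particle, was detected in 42 cells (23.1%) and had 0.15 and -0.02. Of 14 genes of RNA polymerase I, the enzyme that transcribes ribosomal RNA, and its factors, none was called, and the highest by the lower of its values was Cd3eap, a subunit gene (0.17 and 0.15). Polr1d had 0.43 in set 1 and 0.12 in set 2. Of 48 large subunit assembly genes none was called, with Gtpbp4 (0.24 and 0.18) and Gnl3 (0.25 and 0.18), both nucleolar GTPases, highest, and the median was 0.12 and 0.11. Of 30 small subunit processing genes, Nob1 was called and Ltv1 was next (0.17 and 0.23). Of 8 snoRNP assembly genes none was called, with the helicase gene Ruvbl1 (0.24 and 0.19) and its partner Pih1d1 (0.22 and 0.18) highest, and of 11 RNA exosome genes none, with Exosc7 (0.24 and 0.16) highest.

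Of 22 known Myc targets with other roles, 1 was called, C1qbp (0.21 and 0.20), a mitochondrial protein gene, and the median was 0.17 in set 1 and 0.05 in set 2. Of 39 S phase genes, Gmnn, which blocks a second round of DNA copying, was called (0.22 and 0.20), and of 53 G2/M phase genes none. The 61 ribosomal protein genes that passed the filter had a median of 0.04 in both sets, and none was called. Of 3 p53 targets that passed, none was called, and Mdm2 had -0.11 and 0.15.

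**Figure D5:**
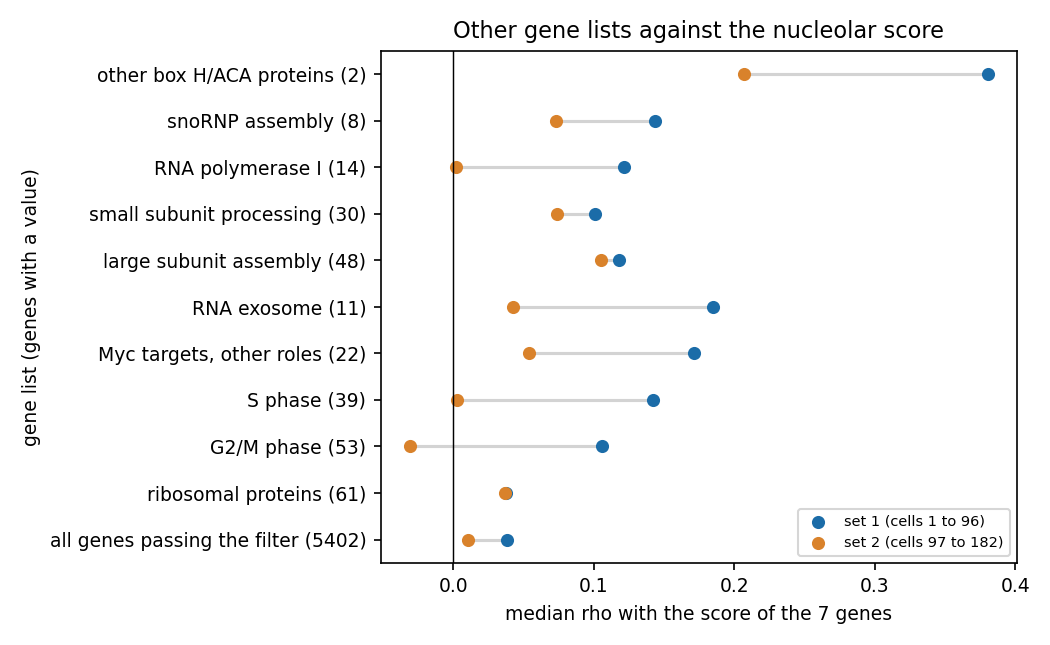
Median Spearman's rho of each gene list with the score of the 7 nucleolar genes, in set 1 (blue) and set 2 (orange), with the number of genes in brackets. The bottom row gives all 5402 genes with a value, at 0.04 and 0.01.

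Over the whole table, 29 of 5402 genes reached 0.2 with the score in both sets. The highest were Cct7, a subunit of the chaperonin that folds actin and tubulin (0.30 and 0.30), Nob1, Lamtor1 (0.27 and 0.28), a lysosomal anchor of nutrient signalling, and Snhg12 (0.30 and 0.26), a non-coding host gene of small nucleolar RNAs. They were followed by Uqcrc2 (0.27 and 0.25), Rnf126 (0.25 and 0.28), Ccz1 (0.24 and 0.27), Zmat5 (0.35 and 0.24), the chaperone gene Hsp90ab1 (0.34 and 0.24) and Ranbp1 (0.28 and 0.24), a regulator of nuclear transport. Genes that ran against the score in both sets, at -0.2 or lower, numbered 3 (0.0555%). These were Tnrc6b, a protein of microRNA silencing (-0.28 and -0.30), Arhgef1 (-0.23 and -0.23) and Cd79a, a signalling chain of the B cell receptor (-0.23 and -0.31). The next lowest were Vps26a (-0.20 and -0.24) and Ucp2 (-0.20 and -0.21), which missed the limit in set 1. The summed value of the 11 germinal centre B cell markers, which include Cd79a, had a rho of -0.21 with the score in set 1 and -0.10 in set 2. Its part in the relation of Cd79a was not tested.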

How the data were processed

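The authors deposited a table of normalized signal per gene and cell, not on a log scale. Per the submitters' processing notes, TopHat2 2.0, Cufflinks 2.2 and Cuffdiff were used with mm10; the sources used here give neither the normalization nor the starting unit or annotation. No read counts were used, so depth per cell is unknown, and no count model was fitted. Of 17035 rows, 1 that repeated a symbol was left out. The column sets are told apart by the values: each gene has its own floor in each. Correlations were computed with NumPy 2.4.6 and SciPy 1.17.1. They were checked on simulated pairs with a strong relation or none, so not at the weak sizes reported here. Similar transcripts were searched with BLAST 2.17.0. List scores used members detected in at least 10% of cells, except the score of the 7 genes. The members and lists were chosen with earlier results of these data known. The text names the 7 genes, the genes they were compared with, up to 4 genes of each list and the 10 highest and 5 lowest genes by the score, and 3 genes most like each member, of which 1 is not reported here. Promoter windows came from RefSeq, which gave 5 of the 7 genes.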

Additional observations from a re-analysis of the deposited data

How the results depend on the processing

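No paired analysis was possible because all cells form 1 group. A correlation was taken to have moved when it changed by more than 0.1, and a share when it left its interval. From its value over all cells (0.13), the rho of the nucleolar score with Myc moved to 0.28 in set 1 and to 0.018 for presence or absence at a value of 1. The rho with the S phase score (0.20) moved to 0.33 in set 1 and 0.039 in set 2, or 0.047 in set 2 given genes above floor. The rho with the G2/M phase score (0.08) moved to 0.21 in set 1 and -0.14 in set 2, or -0.13 in set 2 given genes above floor. Given genes above floor, the rho with Myc was 0.22 in set 1 and 0.06 in set 2. Over all cells, given the set too, it was 0.039. For values that are themselves about 0.1 or smaller, this tolerance says little of stability. The mean rho over 21 pairs (0.11) was 0.041 for presence or absence and 0.059 to 0.071 as Pearson's r with pseudocounts of 0.1, 1 and 10. The rho with Cxcr4 (-0.07) was -0.15 for presence or absence, and that with Cd83 (0.08) was 0.15 in set 2. Leaving out Fbl or cell 122, whose summed value was the highest, was also tried. Fbl, detected in 4 cells, has the same weight in the score as each other member. In neither check did a correlation move, and the rho with Myc was 0.128 without Fbl and 0.127 without cell 122. Both checks, and terms for depth within a set, were added after the data had been seen. The median share of 43.4% was 29.1% at a value of 5 or more, 22.5% at 10 or more and 52.2% above the floor. With a limit of 0.3 in place of 0.2, the number of pairs called was 0, where 0.0439% of all gene pairs were called. With gene filters of 5% and 25% it was 1, where 0.614% and 0.971% of all gene pairs were called. Those filters keep the same 15 member pairs, so this count could not change and says nothing of stability. With no filter on low values it was also 1. The cause of these shifts was not tested. Without read counts, the precision of low values is unknown.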
